A study of Caenorhabditis elegans with 9 samples.

Results

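The astacin metalloproteases of *C. elegans* were followed across 3 groups of worms. Members were every gene with a symbol of *nas* and a number, apart from *nas-36* and *nas-37*, together with *dpy-31* and *hch-1*, which are astacins under older names. This rule found 37 of the 20541 genes in the deposited tables. They carry 36 symbols, because 2 gene identifiers on chromosome V, WBGene00003521 and WBGene00021221, share the symbol *nas-2*. The rule used names and no measured value.

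Astacins are zinc-dependent endopeptidases, named after a digestive enzyme of the crayfish. They are made with a signal peptide and a propeptide, and most are secreted or held at the cell surface, where they cut matrix proteins, procollagens and other secreted proteins. Vertebrates have few, among them the meprins and the BMP1/tolloid procollagen proteinases, whereas nematodes have a large family. In the worm, DPY-31 is the procollagen C-proteinase that trims the cuticle collagens SQT-3 and DPY-17, HCH-1 acts in hatching from the eggshell, and NAS-6 and NAS-7 act in the cuticle and grinder of the pharynx. NAS-38 acts in moulting and in the sleep that goes with it, and NAS-39 has the domain order of BMP1/tolloid. The family is divided by its domains into subgroups I to VI. The members here comprised 6 genes of subgroup I, 10 of subgroup II, 14 of subgroup III, whose proteins mostly carry EGF-like and CUB domains, 2 of subgroup IV, 4 of subgroup V and 1 of subgroup VI.

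RNA-Seq was carried out on whole worms in 3 groups of 3 libraries. WT worms of strain N2 were fed *E. coli* OP50, the standard food, or exposed to the pathogen *P. aeruginosa* PA14, and worms of the genotype *egl-44(mt2247)* were fed *E. coli* OP50. All were moved as young adults to 25°C and harvested 24 h later, and all are labelled as adults. EGL-44 is the TEAD transcription factor of the worm. The study writes the genotype as *egl-44(mt2247)*, while the titles of these samples read MT2247. The sources used here do not give the lesion in *egl-44*. Both comparisons share the OP50 libraries of WT worms. No label says that replicates came from separate cultures, so p-values measure only the spread between these libraries. The sources used here do not say whether the *egl-44* libraries were grown and made alongside those of WT worms, so genotype and time of preparation cannot be told apart.

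The library totals recovered from the FPKM steps were 13638251 to 17831389 reads, at which 1 read on 1 kb of transcript was worth 0.0561 to 0.0733 FPKM (fragments per kilobase of transcript, scaled to the library total, a level per length). Summed FPKM of 9 oocyte markers was 958 to 2382 in WT worms on OP50 and 15.6 to 41.8 in *egl-44* worms, and that of 8 sperm markers was 1643 to 2168 against 3.41 to 41.3. The adult cuticle collagen gene *col-19* was at 1475 to 2221 FPKM in WT worms on OP50 and at 3.64 to 5.54 FPKM in *egl-44* worms, and the yolk protein gene *vit-2* was at 509 to 1448 against 2.40 to 3.88 FPKM. Of 8 cuticle collagen genes taken as epidermis markers, which include *col-19*, 4 were called lower in *egl-44* worms and 3 higher. *rol-6* is also in the collagen processing list used below and *bli-1* in the moulting list, so these 8 are not read as markers of adult epidermis alone. Those lower were *col-19*, *col-119*, *col-120* and *col-140*, and those higher were *rol-6*, *dpy-7* and *col-10*. The summed FPKM of the 8 was 6231 to 8719 in WT worms on OP50 and 2433 to 2811 in *egl-44* worms. Of the 7 intestine markers that include *vit-2*, 1 was called lower (*vit-2*) and 2 higher (*ges-1* and *elt-2*), with a median log2 fold change of 0.42. Over all genes tested, 23.4% were called lower and 17.9% higher. Oocyte and sperm markers, *vit-2* and *col-19* were thus low in the *egl-44* libraries, whose label says adult. The *egl-44* gene itself was at 15.97 to 21.5 FPKM in WT worms on OP50, 30.4 to 37.5 on PA14 and 28.2 to 37.8 in the mutant, which does not check the genotype label because the lesion is not known.

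Of the 37 members, 26 were above 0 in all 9 libraries, 14 averaged 5 FPKM or more across them, 7 averaged under 0.5 FPKM, and the 2 *nas-2* identifiers were at 0 throughout. Together the members held 187 to 309 FPKM in WT worms on OP50, 151 to 293 on PA14 and 280 to 420 in *egl-44* worms, which was 0.0182% to 0.0450% of the FPKM of a library. In this RNA of whole worms, fewer cells of a type and less RNA per cell cannot be told apart.

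The highest mean over the 9 libraries belonged to *nas-11*, of subgroup II. Its level was 49.5, 59.0 and 60.6 FPKM in OP50 replicates 1, 2 and 3 of WT worms, 48.9, 31.2 and 60.3 FPKM on PA14, and 81.0, 40.8 and 56.5 FPKM in *egl-44* worms. The 3 groups overlapped, and the highest and the lowest *egl-44* libraries spanned both WT groups apart from PA14 replicate 2. *nas-9*, also of subgroup II, was at 15.1, 21.1 and 28.2 FPKM on OP50, 19.2, 23.03 and 28.97 FPKM on PA14 and 22.6, 17.9 and 23.8 FPKM in *egl-44* worms. Its groups overlapped as well. *nas-7*, an astacin of the pharynx, was at 21.9, 28.1 and 4.88 FPKM on OP50, 8.97, 3.64 and 25.2 FPKM on PA14 and 31.5, 29.9 and 10.3 FPKM in *egl-44* worms. Each group of *nas-7* held at least 1 library far from the others, so its groups overlapped too. The other members among the 5 with the highest means, *dpy-31* and *nas-20*, differed between WT and *egl-44* worms and are described with that comparison.

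**Figure D1:**
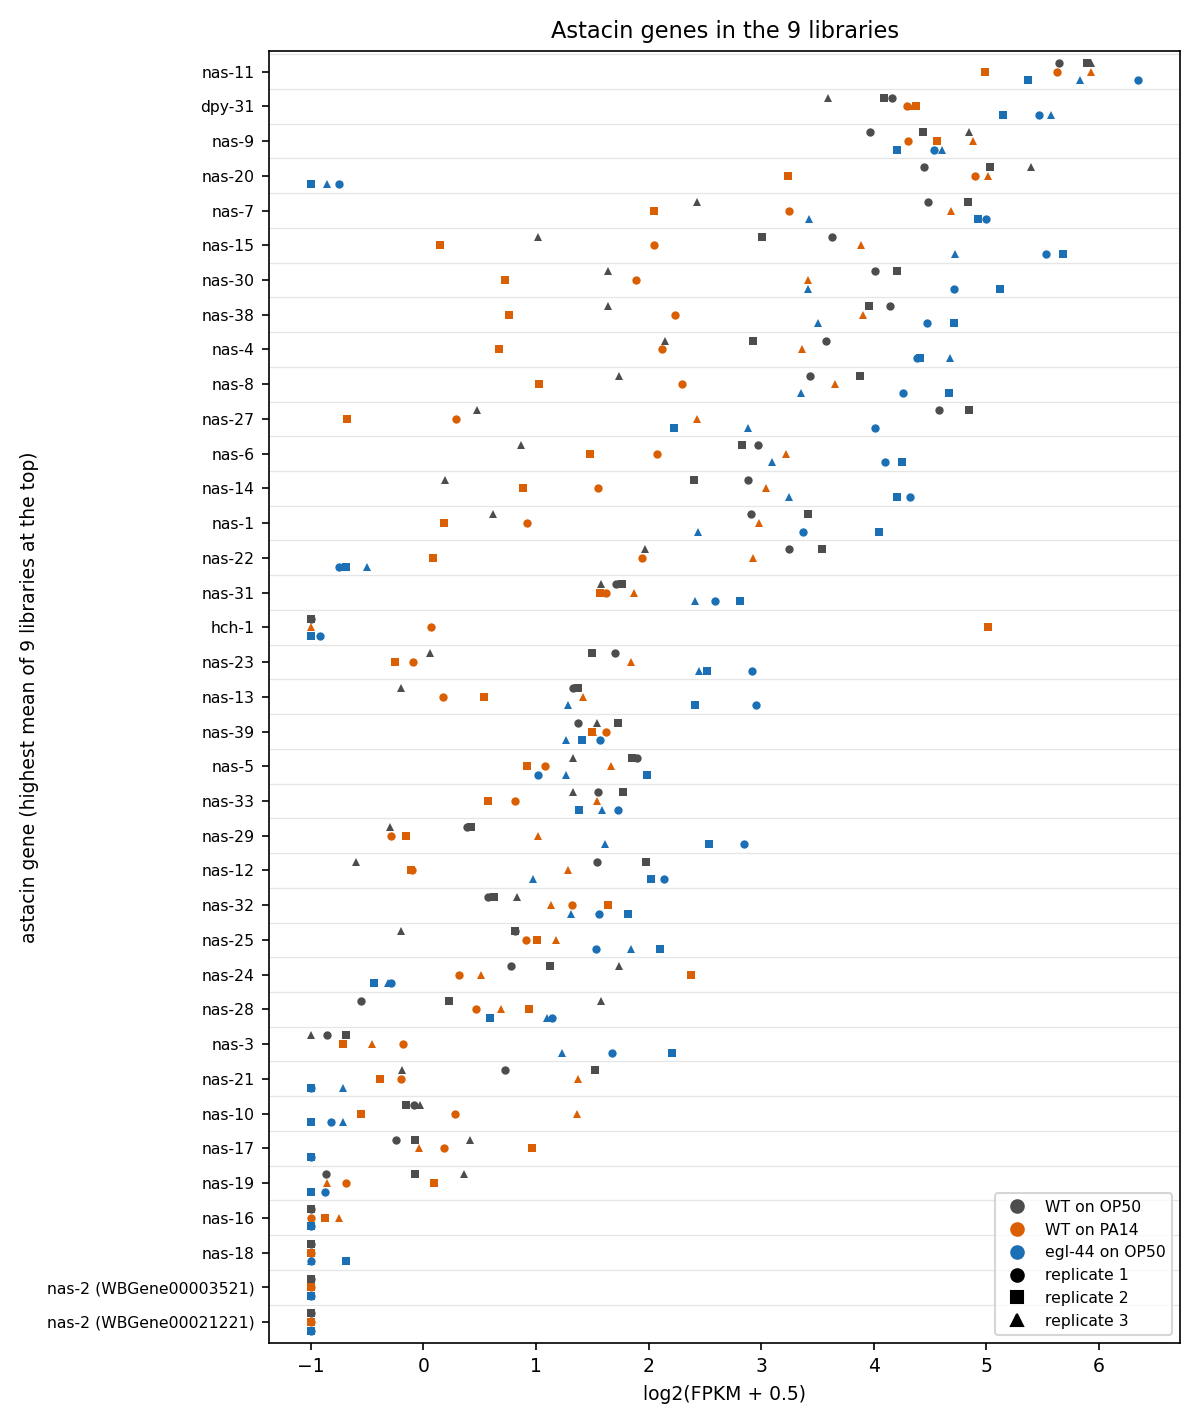
Level of each astacin gene in each of the 9 libraries, as log2(FPKM + 0.5), with genes ordered by their mean, the group given by colour and the replicate by shape; a value of -1 is an FPKM of 0. *nas-20* lies at 21.2 to 41.6 FPKM in WT worms on OP50 and at or near 0 in *egl-44* worms, and *hch-1* lies at 31.8 FPKM in PA14 replicate 2 and at or near 0 in the other 8 libraries.

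The comparison of *egl-44* with WT worms on OP50 asked which genes differ between these libraries without infection. Oocyte and sperm markers, *vit-2* and *col-19* also differed between them, so genotype cannot be told apart from stage or preparation. A group of neighbouring subgroup III astacins on chromosome V was at or near 0 in *egl-44* worms, while 9 members were higher. With limma on log2(FPKM + 0.5), 29 of the 37 members passed the filter, which asked for 0.5 FPKM or more as the mean of the 6 libraries. Calls needed both an unadjusted p under 0.05 and a change of more than 2-fold. *nas-3*, *nas-4*, *nas-6*, *nas-14*, *nas-15*, *nas-23*, *nas-25*, *nas-29* and *dpy-31* were called higher, 9 in all, where 17.9% of the 15488 genes tested were called higher. *nas-20*, *nas-21*, *nas-22* and *nas-24* were called lower, 4 in all, where 23.4% of all genes were called lower. With the Benjamini-Hochberg adjusted p in the same fit, 8 were higher and 4 lower, where the shares over all genes were 16.6% and 23.1%, and *nas-6* was the call lost. At an unadjusted p under 0.05 alone there were 15 members, where 64.6% of all genes had such a p. The median log2 fold change was 0.92 over the 29 tested members and 0.12 over all genes tested, and 22 members lay above 0 and 7 below. Of these, 5 members (*nas-3*, *nas-20*, *nas-21*, *nas-22* and *nas-24*) reached the filter through 1 group only, so that their place among the tested genes already required a difference. Without OP50 replicate 3, 9 members were higher and 5 lower, the median of the members tested was 0.31 and that of all genes 0.10. The share of all genes called in that fit is not given here, so these counts are not set against it.

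Quantile normalization, which forces all libraries to the same distribution, moved the median of all genes tested from 0.12 to 0.31 and changed the split of all calls from 2780 higher and 3625 lower to 4214 higher and 3031 lower. Under it, 12 members were higher and 4 lower. With median-of-ratios scaling the members' counts were 9 and 4, and all genes had a median of 0.0064. How many of all genes were called under that scaling is not given here, so the members' counts are not set against it.

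*nas-20*, *nas-21* and *nas-22* lie next to each other on chromosome V, between positions 11470925 and 11478007 of build WBcel235. *nas-20* is on the minus strand and *nas-21* on the plus strand, pointing away from each other, with 254 bases between their annotated starts. *nas-20* had 21.2, 32.2 and 41.6 FPKM in OP50 replicates 1, 2 and 3 and 0.0932, 0 and 0.0520 FPKM in *egl-44* replicates 1, 2 and 3. All 3 *egl-44* libraries were thus at the level of a few reads, far below every WT library. Over the libraries of each group, 1821 reads fell on *nas-20* in WT worms and 3 in *egl-44* worms, of 48212345 and 47455594 reads in all, a ratio of 597 per read sequenced (exact 95% interval 204 to 2899.9, counting error only). Its log2 fold change was -5.83 (SE 0.30, limma adjusted p = 0.000126), the farthest from 0 of the 29 tested members.

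*nas-22* had 8.99, 11.1 and 3.41 FPKM in WT worms and 0.0928, 0.121 and 0.207 FPKM in *egl-44* worms. Its groups did not overlap, and WT replicate 3 was the lowest WT library. The pooled reads were 454 against 8, a ratio of 55.9 (95% interval 28.1 to 130.2), and the log2 fold change was -3.56 (SE 0.43, limma adjusted p = 0.001003). A further gene, *T11F9.7*, overlaps *nas-22* on the same strand in the annotation, and the sources used here do not say how shared reads were counted. *nas-21*, between them, had 1.15, 2.38 and 0.378 FPKM in WT worms and 0, 0 and 0.108 FPKM in *egl-44* worms. The pooled reads were 71 against 2, a ratio of 34.9 (95% interval 9.32 to 294.1). The log2 fold change of *nas-21* was -1.59 (SE 0.44, limma adjusted p = 0.0196), and without OP50 replicate 2, its highest library, the gene no longer passed the filter.

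A second array of subgroup III genes, *nas-16*, *nas-18*, *nas-17* and *nas-19*, lies 68.2 kb away at positions 11392320 to 11402710. These 4 genes were at low levels and did not pass the filter in this comparison. *nas-17* had 0.343, 0.448 and 0.834 FPKM in WT worms and 0 in all 3 *egl-44* libraries, with 35 reads against 0, so that it was at least 11.5-fold higher in WT worms by a floor of 3 reads over the group. With no filter on low values, *nas-17* was called lower (log2 fold change -1.03, SE 0.19, limma adjusted p = 0.00569, a size that depends on the pseudocount). *nas-19* had 0.0485, 0.450 and 0.785 FPKM in WT worms and 0.0470, 0 and 0 FPKM in *egl-44* worms, with 24 reads against 1 (ratio 23.6, 95% interval 3.85 to 971.5). Its lowest WT library, at 1 read, was as low as its highest *egl-44* library. *nas-16* had no read in either group, and *nas-18* had 1 read, in *egl-44* replicate 2.

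The 2 arrays and the interval between them span 85.7 kb and hold 15 other genes, a window chosen after the astacin values were seen. Of the 13 that were tested, 7 were called higher and 1 lower, where the shares over all genes tested were 17.9% and 23.4%. The median log2 fold change of these 13 genes was 1.04. The gene called lower was *T26H10.2* (log2 fold change -4.57, limma adjusted p = 0.000199). It reached the filter only through the WT group, so its being tested already required a difference. The 2 untested genes, *K03B8.4* and *T11F9.7*, had means of 0.517 and 0.141 FPKM in WT worms and 0.200 and 0 FPKM in *egl-44* worms. Just outside the window, beyond *nas-16*, *K03B8.11* had 0.781, 1.81 and 0.844 FPKM in WT worms and 0 in all 3 *egl-44* libraries, and was called lower (limma adjusted p = 0.00388). *K03B8.11* too reached the filter only through the WT group. *aat-6*, an amino acid transporter gene on the same strand as *nas-20* that lies 261 bases away from it, had 17.3, 19.2 and 13.8 FPKM in WT worms and 15.5, 12.6 and 16.8 FPKM in *egl-44* worms. Its groups overlapped (log2 fold change -0.16, limma adjusted p = 0.534).

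**Figure D2:**
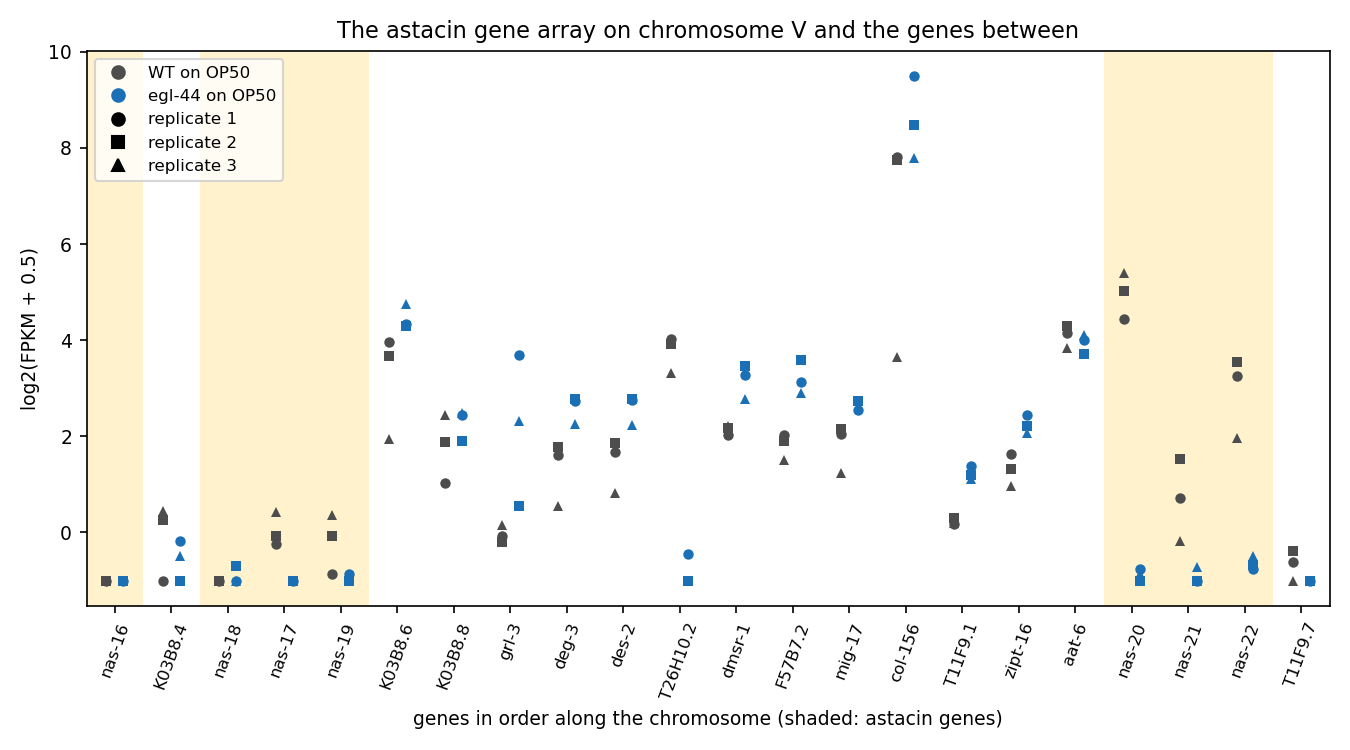
Level of each gene of the 85.7 kb stretch of chromosome V in the OP50 libraries of WT worms and in *egl-44* worms, as log2(FPKM + 0.5), with genes in their order along the chromosome (not to scale) and the astacin genes shaded; a value of -1 is an FPKM of 0. The *egl-44* libraries of *nas-20*, *nas-21* and *nas-22* lie near the bottom, while those of the neighbour *aat-6* lie at 12.6 to 16.8 FPKM, overlapping those of WT worms.

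*nas-24*, a subgroup III gene elsewhere on chromosome V, was the fourth member called lower. It had 1.21, 1.68 and 2.82 FPKM in WT worms and 0.317, 0.237 and 0.303 FPKM in *egl-44* worms, and the groups did not overlap. Its pooled reads were 113 against 17, a ratio of 6.54 (95% interval 3.91 to 11.6), and its log2 fold change was -1.56 (SE 0.30, limma adjusted p = 0.00564). *nas-10*, of subgroup II, was too low to be tested, with 36 reads against 5 (ratio 7.09, 95% interval 2.77 to 23.1) and WT levels of 0.396 to 0.479 FPKM against 0 to 0.111 FPKM. For *nas-10*, *nas-17*, *nas-20*, *nas-21*, *nas-22* and *nas-24*, the exact permutation test of 3 libraries against 3 gave p = 0.1 (two-sided), the smallest this design allows.

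Among the members that were higher was *dpy-31*, the procollagen C-proteinase gene. It was at 17.4, 16.6 and 11.6 FPKM in WT worms on OP50 and at 43.7, 34.8 and 47.2 FPKM in *egl-44* worms. Every *egl-44* library was above every WT library on OP50, with means of 41.9 ± 6.38 against 15.2 ± 3.15 FPKM (SD, n = 3 each). The log2 fold change of *dpy-31* was 1.44 (SE 0.22, limma adjusted p = 0.00233). Of its collagen substrates, *sqt-3* was at 813, 243 and 59.9 FPKM in WT worms and 2087, 1411 and 1471 FPKM in *egl-44* worms, and was called higher (log2 fold change 2.83, SE 0.85, limma adjusted p = 0.0266). *dpy-17* was at 1.70, 0.896 and 1.33 FPKM in WT worms and 1.25, 8.22 and 0.557 FPKM in *egl-44* worms, and was not called.

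In subgroup I, *nas-3* and *nas-4* were called higher. *nas-3* had 0.0515, 0.120 and 0 FPKM in WT worms on OP50 and 2.70, 4.12 and 1.84 FPKM in *egl-44* worms, and the groups did not overlap (log2 fold change 2.55, SE 0.31, limma adjusted p = 0.001003). *nas-4* had 11.4, 7.12 and 3.91 FPKM in WT worms and 20.4, 20.7 and 25.0 FPKM in *egl-44* worms. The WT libraries of *nas-4* were spread more widely than those of the mutant, without overlap (log2 fold change 1.61, SE 0.36, limma adjusted p = 0.0101). The other tested genes of the subgroup, *nas-1* and *nas-5*, had log2 fold changes of 0.97 (SE 0.77) and -0.27 (SE 0.34), and their groups overlapped.

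Subgroup II held 3 calls, all higher, among 9 tested genes. *nas-15* had 11.9, 7.52 and 1.52 FPKM in WT worms and 45.6, 50.8 and 25.9 FPKM in *egl-44* worms. Its groups did not overlap, and replicate 3 was the lowest library of each group (log2 fold change 2.76, SE 0.66, limma adjusted p = 0.0124). *nas-14* had 6.89, 4.80 and 0.644 FPKM in WT worms and 19.4, 17.9 and 8.99 FPKM in *egl-44* worms, and replicate 3 was again the lowest of each group (log2 fold change 2.09, SE 0.71, limma adjusted p = 0.0409). *nas-6*, a gene of the pharyngeal grinder, had 7.35, 6.60 and 1.32 FPKM in WT worms and 16.6, 18.5 and 8.02 FPKM in *egl-44* worms. The gap of *nas-6* between the groups was narrow, and its log2 fold change of 1.59 (SE 0.62) had a limma adjusted p of 0.0618. The calls of *nas-14* and *nas-6* were lost without *egl-44* replicate 1 or replicate 2, and that of *nas-6* also without OP50 replicate 3. *nas-13* and *nas-8* had log2 fold changes over 1 and were not called, at 1.39 (SE 0.59, limma adjusted p = 0.0785) and 1.08 (SE 0.60, limma adjusted p = 0.159).

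The genes *phat-1* to *phat-6*, *pqn-8*, *myo-1*, *myo-2* and *tnt-4* were taken as markers of the pharynx. All 10 were found, with summed FPKM of 266 to 364 in WT worms on OP50 and 532 to 702 in *egl-44* worms, and none of them was at 0 throughout. Of the 9 that were tested, *tnt-4*, a muscle troponin T gene, was called higher (log2 fold change 1.002, limma adjusted p = 0.0123), and the median log2 fold change was 0.98. *pqn-8* went the other way, at 3.63, 3.89 and 3.27 FPKM in WT worms on OP50 and 1.78, 1.81 and 2.64 FPKM in *egl-44* worms. It was not called (log2 fold change -0.68, limma adjusted p = 0.0496). Over all genes tested, 17.9% were called higher. The part of the pharynx in the levels of *nas-6* and the other subgroup II genes was not tested.

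In subgroup III, *nas-23*, *nas-25* and *nas-29* were called higher, in contrast with the 4 genes of the same subgroup that were lower. *nas-29* had 0.809, 0.839 and 0.312 FPKM in WT worms and 6.70, 5.31 and 2.56 FPKM in *egl-44* worms (log2 fold change 2.16, SE 0.40, limma adjusted p = 0.00478). *nas-23* had 2.76, 2.33 and 0.541 FPKM in WT worms and 7.05, 5.22 and 4.96 FPKM in *egl-44* worms (log2 fold change 1.54, SE 0.46, limma adjusted p = 0.0272). In both genes every *egl-44* library was above every WT library, and WT replicate 3 was the lowest. *nas-25* had 1.25, 1.25 and 0.373 FPKM in WT worms and 2.39, 3.78 and 3.09 FPKM in *egl-44* worms, again without overlap (log2 fold change 1.35, SE 0.36, limma adjusted p = 0.0176). The other tested genes of this subgroup, *nas-27*, *nas-28* and *nas-30*, had log2 fold changes of -0.26 (SE 1.17), 0.53 (SE 0.54) and 1.14 (SE 0.76), and their groups overlapped.

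Subgroups IV to VI had no other call. *nas-31* and *nas-32*, the genes of subgroup IV, were higher in every *egl-44* library than in any WT library on OP50 but stayed under a fold change of 2 on the log2(FPKM + 0.5) scale. Both were called higher with a pseudocount of 0.1 FPKM, with quantile normalization, with limma voom and without *egl-44* replicate 3. *nas-31* was at 2.72 ± 0.217 FPKM in WT worms and 5.61 ± 0.853 FPKM in *egl-44* worms (SD, n = 3 each; log2 fold change 0.92, limma adjusted p = 0.0145), and *nas-32* at 1.10 ± 0.158 and 2.48 ± 0.520 FPKM (log2 fold change 0.88, limma adjusted p = 0.0220). *nas-38*, the moulting and sleep gene, was at 11.6 ± 7.87 against 19.5 ± 7.72 FPKM, *nas-33* at 2.45 ± 0.450 against 2.47 ± 0.347 FPKM, and *nas-39*, the BMP1/tolloid-like gene, at 2.43 ± 0.359 against 2.18 ± 0.284 FPKM. None of these 3 was called, and their groups overlapped. Of the 29 tested members, 11 did not overlap between the groups and were higher, where 34.1% of all genes tested did so, and 4 did not overlap and were lower, where the share of all genes was 35.6%.

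**Figure D3:**
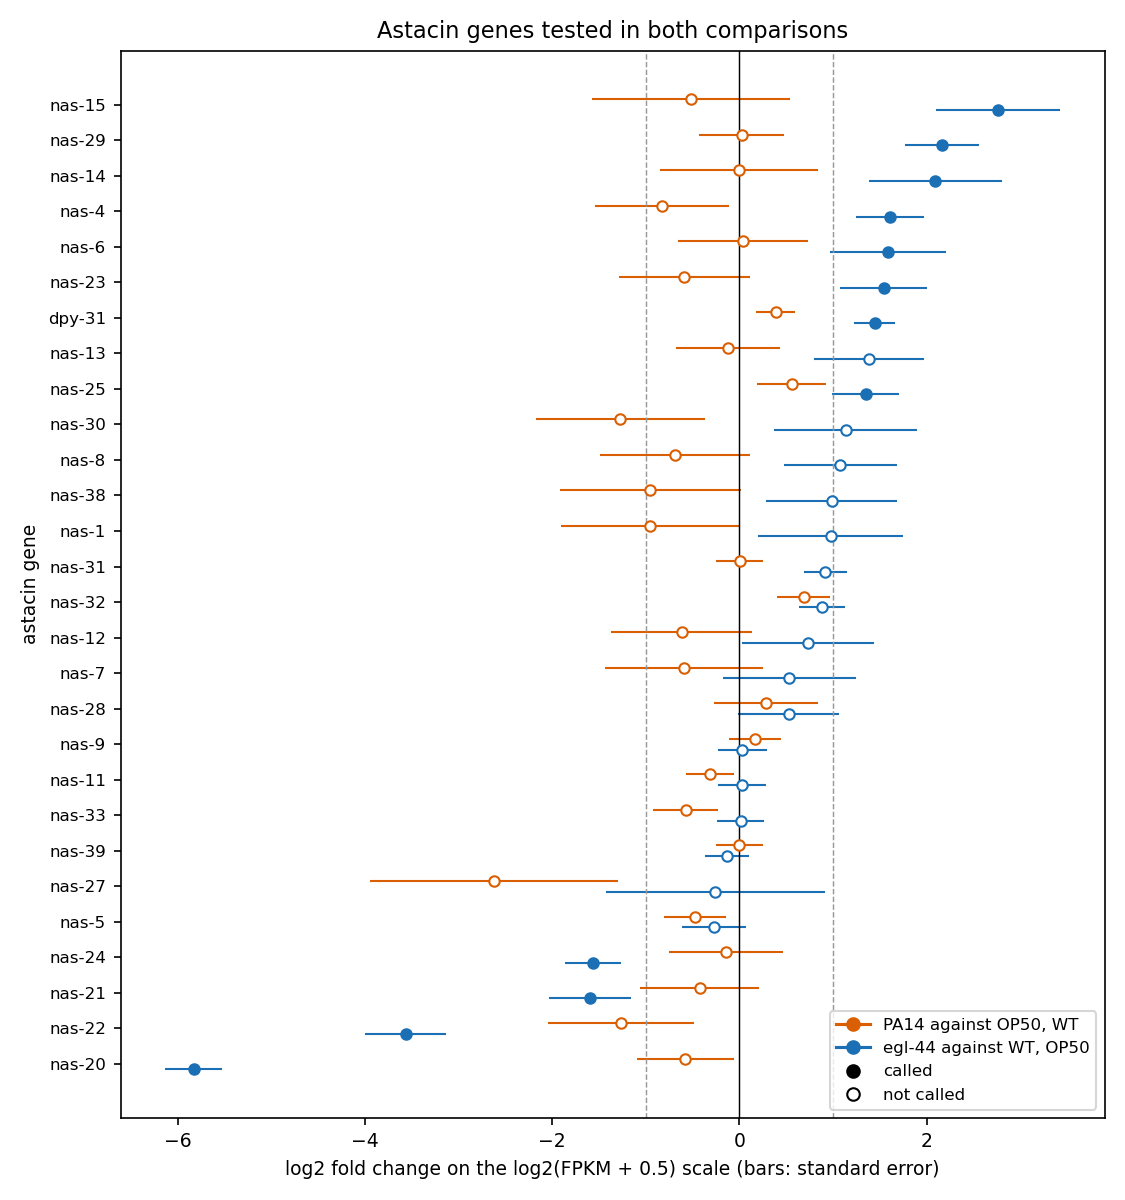
Log2 fold change with its standard error, on the log2(FPKM + 0.5) scale, of each astacin gene tested in both comparisons, for PA14 against OP50 in WT worms and for *egl-44* against WT worms on OP50; filled points are called and dashed lines mark a fold change of 2. *nas-20* lies at -5.83 and *nas-15* at 2.76 in *egl-44* worms, and no point of the PA14 comparison is filled.

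Genes of collagen processing and of moulting were also called higher in *egl-44* worms. Over all genes tested, 17.9% were called higher and 23.4% lower. Of 10 genes of collagen processing, 5 were called higher and none lower. Besides *sqt-3* these were the cuticle collagen genes *dpy-10*, *rol-6* and *dpy-5* and *pdi-2*, a subunit of the collagen prolyl 4-hydroxylase, with log2 fold changes of 4.11, 3.31, 2.34 and 1.53. The limma adjusted p of *dpy-5* was 0.0611, and those of the other 4 genes were between 0.000648 and 0.0266. Of 20 genes of moulting, 15 were called higher and none lower, with a median log2 fold change of 2.50. Examples are *fbn-1*, a fibrillin-like matrix gene, at 1.20, 1.1803 and 0.446 FPKM against 34.0, 28.1 and 30.4 FPKM, and *noah-1*, a cuticle ZP-domain gene, at 26.7, 7.11 and 3.50 FPKM against 161, 142 and 178 FPKM. The moulting collagenase genes left out by the rule were at 18.3, 24.1 and 2.31 FPKM against 24.5, 20.5 and 12.7 FPKM for *nas-36*, and at 21.6, 8.56 and 9.67 FPKM against 65.9, 31.97 and 55.3 FPKM for *nas-37*. Summed FPKM of the moulting list was 159 to 924 in WT worms on OP50 and 1419 to 2295 in *egl-44* worms. These genes and the oocyte and sperm markers, which were called lower in *egl-44* worms (9 of 9 and 8 of 8), differed between the same groups as the astacin genes, and their part in the astacin values was not tested.

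The comparison of worms exposed to PA14 with worms fed OP50 asked which genes respond to infection. No astacin gene was called in it. Of 31 tested members, 0 were called higher, where 6.99% of the 15760 genes tested were, and 0 were called lower, where the share over all genes was 1.78%. With limma's adjusted p the counts were again 0 and 0, where the shares were 0.723% and 0.0761%. At an unadjusted p under 0.05 alone there was 1 member, *nas-32*, where 20.3% of all genes had such a p. With limma voom on the recovered reads the counts were also 0 and 0, where 1236 of all genes were called higher and 306 lower. In the fit, 11 members lay above 0 and 20 below, the median was -0.31 and the median of all genes was 0.25. Median-of-ratios scaling moved the median of all genes to 0.0080 and that of the members to -0.56, and changed the split of all calls from 1102 higher and 281 lower to 645 higher and 602 lower. The members' standard errors reached 1.32 for *nas-27* and 1.46 for *hch-1*, so a lack of calls does not show that levels were alike. Without PA14 replicate 2 the counts were also 0, where 751 of all genes were called higher and 167 lower. The members' median lay between -0.65 (PA14 replicate 3 left out) and -0.019 (PA14 replicate 2 left out) when single libraries were dropped, and was -0.64 with OP50 replicate 3 left out, -0.12 with OP50 replicate 2 left out and -0.19 with PA14 replicate 1 left out. *hch-1* and *nas-10* reached the filter through 1 group only.

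*nas-32* had 0.986, 1.04 and 1.28 FPKM on OP50 and 1.99, 2.61 and 1.69 FPKM on PA14. The groups did not overlap, and the log2 fold change of 0.69 (SE 0.28) stayed under the fold limit, with a limma adjusted p of 0.241. *dpy-31* had 19.1, 20.2 and 19.9 FPKM on PA14, all above its OP50 libraries (log2 fold change 0.39, SE 0.21, limma adjusted p = 0.302). *nas-25* had 1.38, 1.51 and 1.76 FPKM on PA14, also above its 3 OP50 libraries (log2 fold change 0.56, SE 0.37, limma adjusted p = 0.356). These 3 were the members whose groups did not overlap with PA14 higher, where 23.7% of all genes tested did so, and 0 members did not overlap with PA14 lower, where the share was 6.53%.

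Of the 20 genes of moulting, 2 were called on PA14, both higher, where 6.99% of all genes tested were called higher. The 2 genes were *fbn-1* and *let-653*, a gene of the apical matrix, with log2 fold changes of 1.99 and 1.20.

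The astacins of the chromosome V arrays had no called difference on PA14. *nas-20* had 29.3, 8.91 and 31.7 FPKM there, with replicate 2 below all OP50 libraries and the other 2 within their range (log2 fold change -0.58, SE 0.51, limma adjusted p = 0.473). *nas-22* had 3.35, 0.557 and 7.12 FPKM and *nas-21* had 0.369, 0.265 and 2.10 FPKM on PA14. The log2 fold changes of these 2 genes were -1.27 (SE 0.78, limma adjusted p = 0.334) and -0.43 (SE 0.63, limma adjusted p = 0.664), and their groups overlapped. *nas-17* had 0.633, 1.46 and 0.473 FPKM on PA14, above 0 in every library as on OP50. *nas-24* had 0.746, 4.70 and 0.927 FPKM on PA14, with replicate 2 above all other libraries of the series.

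The lowest and the highest fold changes in this comparison rested on few libraries. *nas-27*, of subgroup III, had 23.3, 28.3 and 0.891 FPKM on OP50 and 0.723, 0.125 and 4.89 FPKM on PA14. OP50 replicates 1 and 2 were far above the other 4 libraries, while OP50 replicate 3 lay within the PA14 group (log2 fold change -2.62, SE 1.32, limma adjusted p = 0.285). Without OP50 replicate 3, *nas-27* was called lower (log2 fold change -4.03, SE 0.90, limma adjusted p = 0.165), as were *nas-12* and *nas-30*. In that fit 426 of all genes were called lower, against 281 with all libraries. Without PA14 replicate 3, *nas-27*, *nas-4* and *nas-22* were called lower and *hch-1* higher, with limma adjusted p of 0.1505 to 0.1613. In that fit 993 of all genes were called lower and 1602 higher, against 281 and 1102 with all libraries. Leaving out any other single library called no member.

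*hch-1*, the hatching gene, was at 0 in all 3 OP50 libraries of WT worms. On PA14 it had 0.550, 31.8 and 0 FPKM in replicates 1, 2 and 3, which were 15, 1005 and 0 reads, and in *egl-44* worms 1 read in all. The whole difference of *hch-1* thus came from 2 PA14 libraries, and nearly all of it from replicate 2 (log2 fold change 2.36, SE 1.46, limma adjusted p = 0.335, a size that depends on the pseudocount because the OP50 group is at 0). Some other genes, among them embryo markers, were also higher in that library than in the other PA14 libraries. *dpy-17*, the collagen gene cut by DPY-31, had 10.4, 310.6 and 1.42 FPKM on PA14, *pes-10*, a gene of early embryos, had 0.836, 6.03 and 0 FPKM, and *end-1*, an endoderm gene of the embryo, had 0.320, 2.67 and 0.191 FPKM. On OP50, *pes-10* was at 0 in all 3 libraries and *end-1* was at 0 to 0.101 FPKM. Of the list of 10 embryo markers, 9 were found, and their summed FPKM was 71.1 to 96.2 on OP50 and 43.9 to 74.2 on PA14, with the highest PA14 sum in replicate 2. *sdz-24* alone gave 89.1, 89.9 and 65.7 FPKM of the OP50 sums and 45.4, 32.6 and 30.5 FPKM of the PA14 sums. Each of the other markers found had a higher mean on PA14 than on OP50, several of them near 0, so the direction of the sums is that of *sdz-24*. Of these markers, *end-3* was nearly alike in PA14 replicates 2 and 3, and *med-2* and *sdz-24* were higher in replicate 1 than in replicate 2. On PA14, *pha-4*, a pharynx factor, and *ceh-16*, a homeobox gene, were called higher and *sdz-24* lower, with *pha-4* at 8.76, 23.7 and 11.1 FPKM and *ceh-16* at 1.19, 6.16 and 0.854 FPKM. *ceh-16* reached the filter only through the PA14 group. Over all genes tested, 6.99% were called higher and 1.78% lower on PA14. The part of embryos in the level of *hch-1* was not tested.

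Among replicates of the same group, many members moved together. In OP50 replicate 3, 16 of the 31 members tested in the PA14 comparison (51.6%) had a level under 0.5 times that of each of the other OP50 libraries, where 9.26% of all genes tested did. These were *nas-1*, *nas-6*, *nas-7*, *nas-8*, *nas-12*, *nas-13*, *nas-14*, *nas-15*, *nas-21*, *nas-22*, *nas-23*, *nas-25*, *nas-27*, *nas-29*, *nas-30* and *nas-38*. In PA14 replicate 3, 17 of the 31 (54.8%) were over 2 times each of the other PA14 libraries, where the share of all genes was 8.42%. In PA14 replicate 2, 11 members were under 0.5 times each of the other PA14 libraries (8.65% of all genes) and 3 members, *hch-1*, *nas-17* and *nas-24*, were over 2 times each of them (8.76% of all genes). *nas-30*, for example, had 15.6, 17.9 and 2.61 FPKM on OP50 and 3.19, 1.16 and 10.2 FPKM on PA14, so that the 2 groups held a like range in a different order. *nas-38* had 17.2, 15.1 and 2.62 FPKM and then 4.20, 1.19 and 14.5 FPKM. *nas-5*, *nas-9*, *nas-11*, *nas-28*, *nas-31*, *nas-32*, *nas-33*, *nas-39* and *dpy-31* were in none of these sets. *nas-28* went the other way on OP50, at 0.180, 0.669 and 2.49 FPKM in replicates 1, 2 and 3. It was the 1 member over 2 times each of the other OP50 libraries in replicate 3, where 4.37% of all genes were.

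The sets of OP50 replicate 3 and PA14 replicate 3 shared 15 genes, which is 93.8% of the former and 88.2% of the latter. The same overlap over all genes is not given here. The difference of OP50 replicate 3 from the mean of replicates 1 and 2, and that of PA14 replicates 1 and 2 from replicate 3, were both below 0 in 21 of 31 members. Of all 15760 genes, 5291 were below 0 in both. Pearson's r was 0.71 and Spearman's rho 0.83 over these 31 members. Over all 15760 genes, r was 0.55, and over the 20 moulting genes it was 0.69. These are correlations across genes of 6 libraries, which are not independent replicates, and are given as a description. Both differences and their signs were chosen after the sets above were seen in the same libraries, so they do not test that pattern. The cuticle collagen gene *dpy-5* had 1181, 767 and 93.4 FPKM on OP50 and 187, 34.5 and 688 FPKM on PA14. *nas-36* had 4.16, 1.58 and 15.7 FPKM on PA14 beside the OP50 values above, in the same order of libraries. In *egl-44* worms, replicate 3 was under 0.5 times each of the others in 8 of 29 members, where 3.45% of all genes were, and *nas-7* and *nas-38* were among them.

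**Figure D4:**
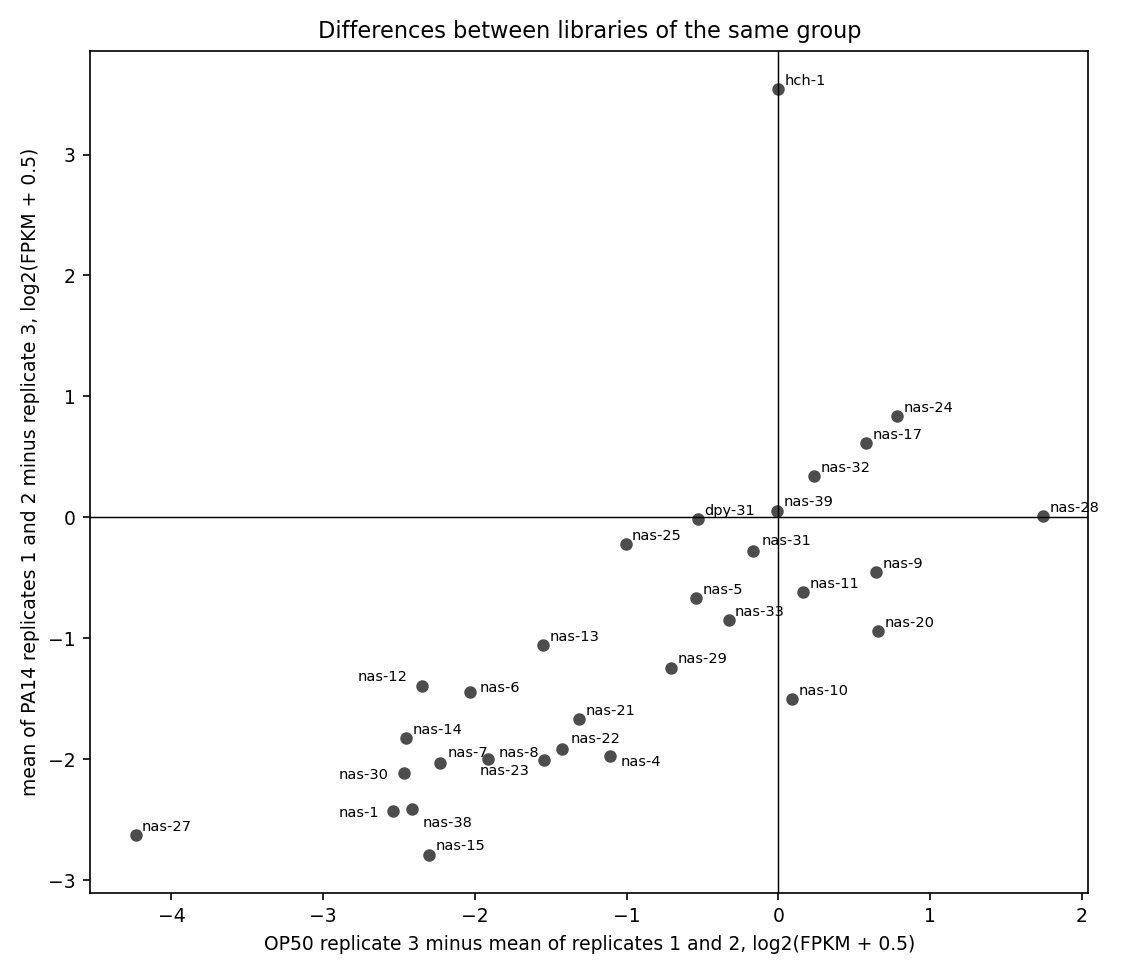
Each astacin gene tested in the PA14 comparison by 2 differences between libraries of the same group on the log2(FPKM + 0.5) scale, OP50 replicate 3 against the mean of replicates 1 and 2 on the horizontal axis and the mean of PA14 replicates 1 and 2 against replicate 3 on the vertical axis. Most points, 21 of 31, lie at the lower left, below 0 on both axes, where 5291 of all 15760 genes would lie. *hch-1* stands apart at the top through PA14 replicate 2.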

How the data were processed

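RNA-Seq of 9 worm libraries, 3 in each of 3 groups, was used. The authors deposited 1 table per library with the FPKM of 20541 genes, read counts divided by transcript length and library total, with replicates kept apart. The submitters' processing notes name build WBcel235, Bowtie2 2.2.3, TopHat2 2.0.12, HTSeq 0.6.1 and DESeq 1.18.0. The sources used here do not give the annotation release, the strand setting or the treatment of shared reads. Gene symbols came from reference tables, which named 19587 identifiers, and positions from the Ensembl annotation of WBcel235.

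The 6 libraries of each comparison were fitted over all genes by limma-trend (limma 3.58.1, R 4.3.3) on log2(FPKM + 0.5), after removing genes whose mean was under 0.5 FPKM. Fold changes are on this scale, which understates those of low genes. Calls required an unadjusted p under 0.05 together with a change of more than 2-fold. A stricter limit replaced this p by the Benjamini-Hochberg adjusted p over all genes tested. For 99.83% of the 19711 genes above 0, FPKM were within 0.01 of whole multiples of the value of 1 read, which gave reads and library totals. Ratios of pooled reads carry exact 95% intervals for counting error only, since the libraries have no molecular identifiers, and a group at 0 was set to a floor of 3 reads. On simulated data with 200 changed genes, 95% were called for PA14 (15491 genes tested) and 97.5% for *egl-44* (15240 genes tested), with 305 and 233 unchanged genes called. After adjustment, 62.5% and 67.0% of the changed genes and 5 and 6 unchanged genes were called. The changed genes had a log2 fold change of 2 and a mean log2(FPKM + 0.5) above 1, and noise was drawn separately for each gene. Shifts shared by many genes, as in OP50 replicate 3, were not simulated, so these shares do not say how often a changed member would be called.

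Values in each library are given for every member called in either comparison and for the 5 with the highest mean, and for other members mentioned for a pattern, chosen after their values were seen. From other lists, genes called in either comparison were open to naming, with *dpy-17* and *sqt-3*. *pes-10*, *end-1*, *end-3*, *med-2*, *pqn-8*, *bli-1*, *nas-36*, *aat-6*, *T26H10.2*, *K03B8.4*, *T11F9.7* and *K03B8.11* are named outside this rule, after their values were seen. Members and gene lists were chosen with earlier results of these data known. Lists are described by counts, with no list test. Alternatives were other pseudocounts and filters, median-of-ratios scaling, quantile normalization, limma voom on the recovered reads, 1 fit of all 9 libraries, a replicate block and leaving out each library. Tables and figures used matplotlib 3.10.9, pandas 2.3.3, scipy 1.17.1 and numpy 2.4.6 under Python 3.11.15.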

Additional observations from a re-analysis of the deposited data

How the results depend on the processing

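Of the 13 calls in *egl-44* worms, 10 were kept under each alternative other than the filter of 5 FPKM (*nas-3*, *nas-4*, *nas-15*, *nas-20*, *nas-22*, *nas-23*, *nas-24*, *nas-25*, *nas-29* and *dpy-31*). Among these, *nas-3*, *nas-20*, *nas-22* and *nas-24* had reached the main filter through 1 group only. The filter of 5 FPKM left 14 members to test, with 5 higher and 1 lower, and 4 and 1 after adjustment. Leaving out each library in turn gave 7 to 12 higher and 3 to 5 lower, and 5 to 12 and 3 to 5 after adjustment. The lowest adjusted count, 5, was without *egl-44* replicate 2. For these *egl-44* fits the calls over all genes are not given here, so the members' counts describe only how their calls moved. For PA14, leaving out each library in turn gave 0 to 1 higher and 0 to 3 lower. There were 3 lower without OP50 replicate 3, and 1 higher and 3 lower without PA14 replicate 3. Over all genes, these 2 fits called 1298 higher and 426 lower, and 1602 higher and 993 lower. The cause was not tested.

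Some members that were not called changed sign. In the PA14 comparison, leaving out each library in turn moved *nas-7* between -1.34 and 0.046 (above 0 without PA14 replicate 2) and *nas-9* between -0.059 and 0.38 (below 0 without OP50 replicate 1). In *egl-44* worms it moved *nas-7* between -0.21 and 1.05, *nas-9* between -0.19 and 0.25 and *nas-11* between -0.22 and 0.27. Median-of-ratios scaling put *nas-9* at -0.084 on PA14 and at -0.087 in *egl-44* worms, and *nas-11* at -0.095 in *egl-44* worms, and quantile normalization put *nas-9* at -0.018 on PA14.

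The main fit did not treat libraries with the same replicate number as pairs. Their deviations correlated at -0.55 to -0.19 for PA14, below the highest value with another number for each replicate. For *egl-44* the values were 0.0826, 0.0656 and 0.0949 in replicates 1, 2 and 3, beside highest values with other numbers of 0.0072, 0.206 and 0.0205. Correlations this weak do not show whether the *egl-44* libraries were paired with those of WT worms. With a replicate block, no member was called for PA14, where 994 of all genes were called higher and 229 lower. In *egl-44* worms 12 members were then higher and 4 lower, and the calls over all genes are not given here. *nas-10*, *nas-16*, *nas-17*, *nas-18* and *nas-19* rest on few reads, which limits what can be said of them.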

Other observations

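Lists of other proteases, chosen with earlier results of these data known, held calls in both directions. Over all genes tested, 6.99% were called higher and 1.78% lower on PA14, and 17.9% and 23.4% in *egl-44* worms. Of 10 aspartyl protease genes, which include the digestive proteases of the gut, *asp-13* was called lower on PA14, at 20.1, 23.8 and 9.38 FPKM against 85.9, 44.8 and 54.3 FPKM on OP50 (log2 fold change -1.81). In *egl-44* worms *asp-13* was called higher (log2 fold change 1.01) and *asp-12* and *asp-14* lower (log2 fold changes -2.17 and -1.08). Of 9 ADAM-type metalloprotease genes, *adt-3* was called lower on PA14 (log2 fold change -1.58), and in *egl-44* worms *adt-2* was called higher (1.12) and *unc-71* lower (-1.71).

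Of 8 genes of matrix metalloproteases and their inhibitors, *zmp-2* and *zmp-5* were called higher in *egl-44* worms, where 17.9% of all genes tested were. *zmp-2* was at 4.23, 1.95 and 1.19 FPKM in WT worms on OP50 and 40.7, 49.1 and 53.5 FPKM in *egl-44* worms (log2 fold change 4.15, limma adjusted p = 0.000412), and no WT library reached a level near those of the mutant. *zmp-5* was at 0.0423 to 0.0491 FPKM against 1.19 to 2.38 FPKM (log2 fold change 1.91, limma adjusted p = 0.00196). It reached the filter only through the *egl-44* group, so its being tested already required a difference.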
